A study of Mus musculus with 75 samples.

Results

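The nuclear genes of the mitochondrial respiratory chain were followed through 11 tissues of aged and young mice and through choroid plexus from parabiotic mice. The genes were chosen by name: symbols for complex I subunits (Ndufa, Ndufb, Ndufc, Ndufs and Ndufv with a number), Sdha to Sdhd, those starting with Uqcr, Cox4 to Cox8 and Atp5, with assembly factors named Ndufaf and pseudogenes left out. In the tissue data 85 of 20680 genes met the rule: 35 of complex I, 4 of complex II, 8 of complex III, 20 of complex IV, 15 of complex V, and 3 that share a name but are not subunits (Cox4nb, Atp5s and Atp5sl). In the parabiosis data 84 of 16954 genes did, the testis-type subunit Cox8c being the one without a row there. Ndufa4 and its relative Ndufa4l2 were counted with complex IV, where the Ndufa4 protein is found. All animals were C57BL/6 mice perfused with PBS, 22 months old (aged or old) or 3 months old (young). The tissue libraries are labelled WT (wild type). For the tissues, 3 untreated aged and 3 untreated young mice were used, with 1 library per tissue and mouse, except that 2 libraries were analysed for young bone marrow, young cervical lymph nodes and aged liver. The parabionts, animals whose circulations are surgically joined, were 3 young and 3 old mice from pairs of equal age (isochronic), and 3 young and 2 old mice from pairs of 1 young and 1 old animal (heterochronic); only their choroid plexus was sequenced. The choroid plexus is the epithelial sheet in the brain ventricles that makes cerebrospinal fluid.

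The respiratory chain passes electrons from NADH through complex I, or from succinate through complex II, by way of complex III to oxygen at complex IV, and the proton gradient built on the way drives ATP synthesis at complex V. Most subunits are coded in the nucleus, a few in mitochondrial DNA. Several subunits of complex IV, cytochrome c oxidase, exist as a general form and a form named for heart and skeletal muscle (Cox8b, Cox7a1 and Cox6a2), for lung (Cox4i2) or for testis (Cox6b2, Cox7b2 and Cox8c). Cox8b and Cox7a1 are also known from brown fat, the heat-producing fat marked by the uncoupling protein Ucp1.

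Values are deposited scaled reads per transcript, so each gene was compared with itself across libraries. Depth was 187827 to 1134770.4 reads per tissue library and 534663 to 992000.2 reads per parabiont library. The markers of the labelled tissue were above 0 in all its libraries (11 of 11 for spleen, 9 of 9 for bone marrow and 12 of 12 for the others). A value above 0 is a weak check of identity. In inguinal nodes of aged mouse 3 the lymphocyte markers summed to 341, where the highest inguinal library had 2496. The median over libraries of all other tissues was 372. Erythroid markers in inguinal nodes summed to 13224 in aged mouse 3, against 49.1 and 119 in aged mice 1 and 2. Libraries of young mouse 2 stood apart. Its hippocampus library had a summed level of lymphocyte markers of 1469 against 3.71 to 11.2 in the other 5 hippocampus libraries, its lung library had liver markers at 81646, its spleen library had lung markers at 38321 and its mesenteric node library had colon markers at 9918. Its liver library held lymphocyte markers at 644 and thymus markers at 2851 (other livers at most 56.4 and 189), and its cervical node library hippocampus markers at 2969 (others at most 76.5). The liver library of young mouse 1 held lung markers at 6369 (others at most 133). Inguinal nodes of aged mouse 3 held fat cell markers at 26048, against at most 2809 in the others. Cervical nodes of aged mouse 1 held brown fat markers at 510.3 (others at most 26.6). For the medians over the chain genes and the named genes that such a library moved by over 1.5 times, the value without it is given. Other libraries also stood apart, and values without them are given only where stated. Bpifa2 was the gene with the most reads in cervical nodes of aged mice 1 and 2 and young mouse 2 (23595, 65995 and 12595). Cervical nodes of aged mouse 3 held choroid plexus markers at 3739 (others at most 692). Mesenteric nodes of young mouse 3 held fat cell markers at 12718 (others at most 3004). Those of young mouse 2 held smooth muscle markers at 2072 (others at most 316).

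The share of all values taken by respiratory chain genes together differed between tissues. The share was 3.53% to 4.11% in colon and 3.02% to 3.40% in choroid plexus, and 1.38% to 1.83% in lung, 1.43% to 1.68% in spleen and 1.51% to 1.72% in bone marrow, so the first 2 tissues did not overlap the last 3. The highest lung share was that of young mouse 2, and the other 5 lung libraries reached 1.44%. With the abundant Ttr left out of the total, the share was 4.39% to 5.00% in choroid plexus and 3.53% to 4.12% in colon, which reverses the order of these 2 tissues. Of the 85 genes, 32 had their highest tissue median in choroid plexus, 30 in liver and 14 in colon. Yet the share of all values in liver was 2.09% to 2.27%, below colon and choroid plexus. Its median share (2.19%) was also below that of hippocampus (2.61%), so highest medians and shares rank liver differently. Of the 79 with a median above 0 in every tissue, 33 were lowest in spleen, 19 in inguinal nodes and 12 in lung. The spread differed by gene. Cox7a2l, a relative of Cox7a2 that helps complexes III and IV associate, varied 2.00-fold between its highest and lowest tissue medians, whereas Atp5g1, one of 3 genes for the c-ring subunit of ATP synthase, varied 15.6-fold, from choroid plexus (median 336) to inguinal nodes (median 21.5).

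The tissue-type forms of complex IV followed their own patterns. Cox8b ranged from 54.9 to 359 over the 6 choroid plexus libraries and from 12.3 to 353 in thymus, but only from 0.680 to 2.45 in colon, 0 to 2.66 in hippocampus and 0 to 1.63 in bone marrow. Cox7a1 ranged from 25.7 to 96.0 in choroid plexus and from 40.7 to 96.4 in colon, so colon held Cox7a1 with hardly any Cox8b. Cox6a2 was highest in lung (17.6 to 53.3) and bone marrow (11.4 to 23.9), and reached at most 1.4 in choroid plexus, colon and liver. Cox4i2 was highest in lung at 20.7 to 61.7, and its highest choroid plexus value was 4.14. Ndufa4l2, a paralogue known to be induced in low oxygen, was also highest in lung, at 11.4 to 22.6. Cox6b2, named for testis, was 83.1 to 137 in choroid plexus and 16.3 to 35.7 in bone marrow, and at most 23.8 elsewhere. Cox7b2 never exceeded 1.89 and Cox8c never exceeded 1.87, in any of the 63 tissue libraries.

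**Figure D1:**
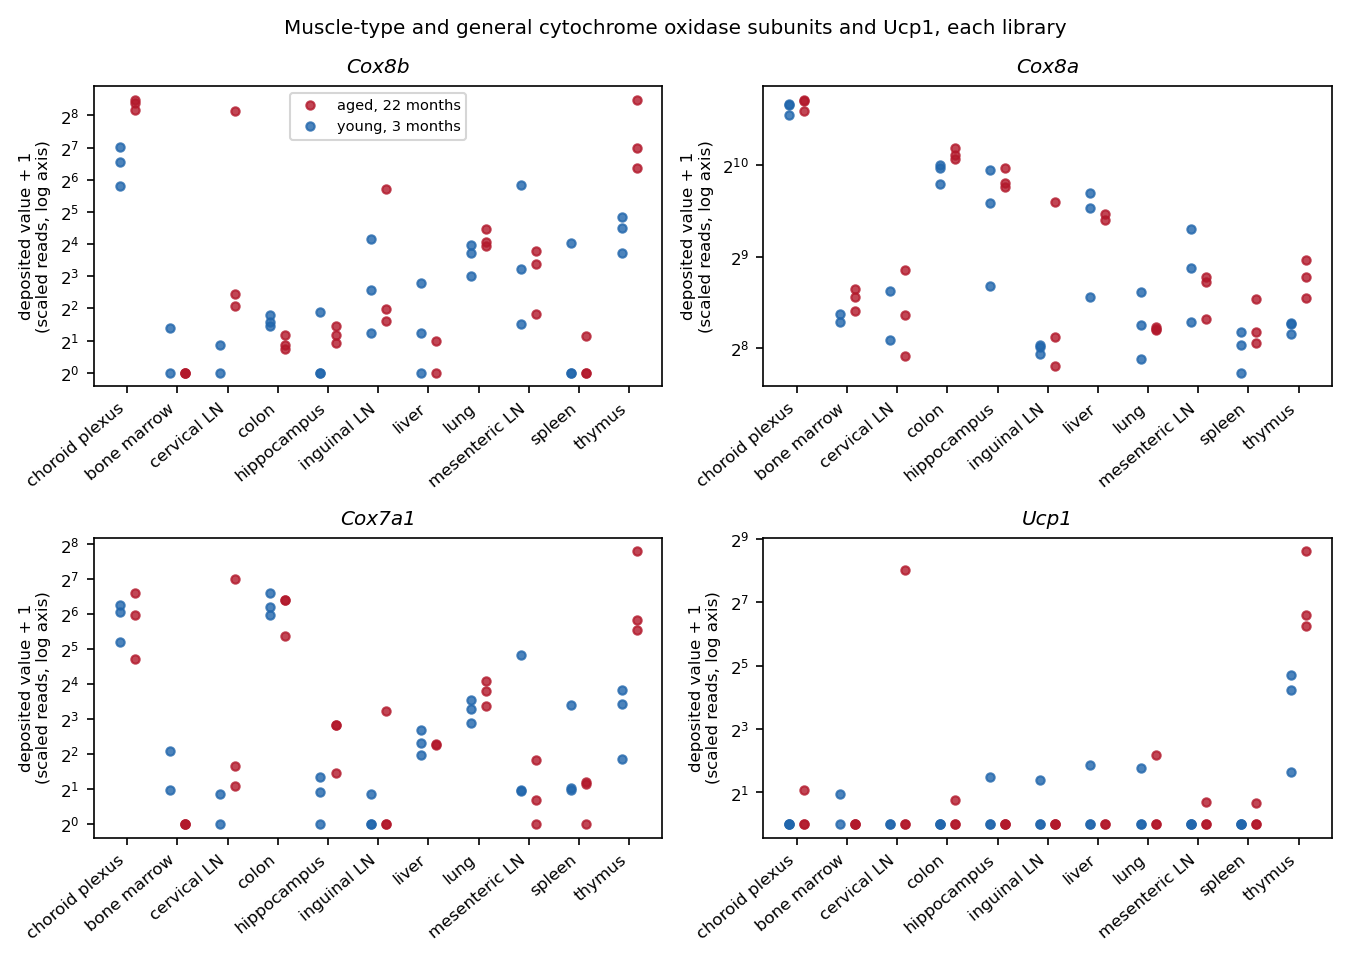
Deposited value plus 1 (scaled reads, log axis) of Cox8b, its general counterpart Cox8a, Cox7a1 and the brown fat gene Ucp1, 1 point per library, by tissue (LN, lymph nodes), with aged mice in red and young mice in blue. Aged choroid plexus libraries sit above all young ones for Cox8b and at Ucp1 values near 0, whereas Cox8b, Cox7a1 and Ucp1 are high together in aged thymus and in 1 aged cervical node library.

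The start regions of the muscle-type and general forms are shown because the pairs parted in the data. They run from 250 bases before to 50 bases after the start (RefSeq, GRCm38.p6) at chr7:140900397-140900696, minus strand (Cox8b), chr19:7217567-7217866, minus strand (Cox8a), chr7:30183921-30184220, plus strand (Cox7a1) and chr9:79759804-79760103, minus strand (Cox7a2). Capitals mark a match on either strand to the ETS-type element CCGGAAGT or the SP1 element GGGCGG.
Cox8b: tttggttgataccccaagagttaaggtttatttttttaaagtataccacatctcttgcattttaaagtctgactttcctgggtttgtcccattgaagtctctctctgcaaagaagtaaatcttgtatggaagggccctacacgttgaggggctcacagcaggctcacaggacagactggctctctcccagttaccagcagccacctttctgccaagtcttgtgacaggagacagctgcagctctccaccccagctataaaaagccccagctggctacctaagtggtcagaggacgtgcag
Cox8a: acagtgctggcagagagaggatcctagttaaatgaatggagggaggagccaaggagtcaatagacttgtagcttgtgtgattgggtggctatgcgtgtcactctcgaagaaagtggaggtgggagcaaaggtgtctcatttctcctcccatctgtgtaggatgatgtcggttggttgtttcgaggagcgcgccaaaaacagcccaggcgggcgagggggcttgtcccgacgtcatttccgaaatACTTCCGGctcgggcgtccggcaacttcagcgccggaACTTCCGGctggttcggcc
Cox7a1: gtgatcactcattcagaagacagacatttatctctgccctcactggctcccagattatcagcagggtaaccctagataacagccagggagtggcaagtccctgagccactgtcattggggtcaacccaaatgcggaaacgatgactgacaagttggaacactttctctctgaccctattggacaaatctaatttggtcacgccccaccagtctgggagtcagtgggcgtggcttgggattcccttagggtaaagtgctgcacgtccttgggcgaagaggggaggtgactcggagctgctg
Cox7a2: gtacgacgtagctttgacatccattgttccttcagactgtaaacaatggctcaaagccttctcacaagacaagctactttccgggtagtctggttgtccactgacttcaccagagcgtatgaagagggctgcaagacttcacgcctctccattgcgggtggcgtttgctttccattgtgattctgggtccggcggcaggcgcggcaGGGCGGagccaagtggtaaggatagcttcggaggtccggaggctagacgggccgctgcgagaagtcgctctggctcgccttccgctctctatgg
Cox8a held the ETS-type letters at 2 places and Cox7a2 the SP1 letters at 1. Cox8b and Cox7a1 held none of the 8 motifs searched, which are listed with their shares at the end.

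Cox8b was the one chain gene called in choroid plexus, where it was higher in aged mice. It measured 286, 337 and 359 in the 3 aged libraries and 54.9, 92.5 and 128 in the 3 young ones. Every aged library was above every young one, with means of 327 ± 37.8 (SD, n = 3) and 91.8 ± 36.5 (SD, n = 3). The log2 change was 1.91 (SE 0.24), with an adjusted p of 0.00105 by limma over 14227 genes. Over all those genes 0.183% were called at an adjusted p under 0.05. Without the mean-variance trend its adjusted p was 0.313. No other form was called. The general form Cox8a measured 1546, 1681 and 1660.1 in aged and 1491, 1633 and 1615 in young choroid plexus (log2 change 0.04, adjusted p 0.949, limma). The Cox8b to Cox8a log2 ratio was 1.85 higher in aged than in young libraries, and the Cox7a1 to Cox7a2 ratio 0.02 higher. Cox7a1 itself overlapped, at 96.0, 25.7 and 62.7 in aged and 35.9, 66.3 and 76.5 in young libraries, as did Cox6b2 (83.1 to 125 against 113 to 137).

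Markers of brown fat and muscle were also read in choroid plexus. Ucp1 measured 0, 0 and 1.12 in aged libraries and 0 in all young ones. The 10 measured brown fat markers, with Cox8b and Cox7a1 set aside, summed to 189 to 248 in aged and 186 to 224 in young libraries. Elovl3 and Otop1 were at 0 in the aged ones, so other markers of the list made up nearly all of these sums. The same markers summed to 157 and 200 in aged thymus libraries 2 and 3. The part of brown fat in the Cox8b result was not tested. The 16 skeletal muscle markers summed to 19.6 to 48.0 and 19.8 to 27.6, with 5 of 16 and 8 of 16 at 0 throughout. The 10 heart muscle markers summed to 36.4 to 41.8 in aged and 31.1 to 35.1 in young libraries, with Myl7, Myl3 and Actc1 at 0 in all 6; the 2 ranges did not overlap, and their part in the Cox8b result was not tested. In bulk tissue, fewer cells of a type and less RNA per cell cannot be told apart.

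In aged thymus Cox8b was also high, together with Ucp1. Cox8b measured 353, 127 and 82.0 in aged thymus and 21.8, 12.3 and 27.8 in young thymus. Cox7a1 measured 223, 46.0 and 56.0 and 9.90, 2.66 and 13.4. Neither passed the test: the log2 changes were 2.98 (SE 0.53, adjusted p 0.0735, limma) for Cox8b and 3.55 (SE 0.77, adjusted p 0.140, limma) for Cox7a1, although no aged library overlapped a young one for either. Ucp1 ran alongside at 390.2, 74.5 and 94.9 in aged and 17.8, 2.13 and 25.2 in young thymus, and the 10 brown fat markers summed to 157 to 809.8 and 13.0 to 62.0. Aged thymus library 1, the highest for all 3 genes, was also the only thymus library with heart muscle Myh6 (62.8). Its heart muscle markers summed to 337, against at most 24.1 in the other thymus libraries. In cervical nodes 1 library did the same: aged mouse 1 had Cox8b at 281, Cox7a1 at 129 and Ucp1 at 261, where the other 4 libraries had Cox8b at no more than 4.50 and Ucp1 at 0. The part of brown fat and of heart muscle in these 2 results was not tested.

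Of the lung-rich forms, Cox6a2 did not overlap between ages and Cox4i2 did, and neither was called. Cox6a2 measured 46.0, 39.5 and 53.3 in aged and 35.3, 17.6 and 33.9 in young lung (log2 change 0.73, adjusted p 0.543, limma). The lowest value is that of young mouse 2, whose library held liver markers, and without it the log2 change was 0.41 (adjusted p 0.599, limma). The heart muscle markers summed to 375 to 489 in aged and 237 to 307 in young lung, also without overlap, and their part was not tested. Cox4i2 measured 33.7, 31.2 and 32.8 in aged lung and 61.7, 20.7 and 51.7 in young lung, where the low value is again that of mouse 2 (log2 change -0.31, and -0.79 with an adjusted p of 0.316 without it, limma). Ndufa4l2 in lung overlapped between ages, at 11.4 to 21.4 against 13.8 to 22.6 (log2 change -0.25, and -0.43 without young mouse 2).

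No other chain gene was called in choroid plexus. Of 83 chain genes tested there, 52 had a log2 change above 0, and the median was 0.04 against 0.00 over all genes tested. Aged libraries were higher without overlap for 6 chain genes and lower for none; of all genes tested 5.61% and 5.76% were. After Cox8b the smallest p-values were those of Uqcrc1, a core protein of complex III (log2 change 0.41, adjusted p 0.837), and the complex I subunit Ndufa6 (0.31, adjusted p 0.841), and neither passed in limma. Within complex I the changes ran from -0.25 (Ndufb6) to 0.35 (Ndufs1, the largest complex I subunit), in complex II from -0.25 (Sdhd) to 0.17 (Sdhb), in complex III from -0.05 (Uqcrq) to 0.41 (Uqcrc1) and in complex V from -0.34 (Atp5l) to 0.23 (Atp5k). In complex IV, Cox8b stood at the top, and the lowest was Cox7b2, which was close to 0 in every library.

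In thymus most chain genes stood higher in aged mice. Of 84 tested, 73 had a log2 change above 0, with a median of 0.46; over all 14886 genes tested the median was -0.01. All 3 aged libraries were above all 3 young ones for 37 chain genes, 44% of those tested, and below for none; the shares over all genes tested were 10.6% and 7.67%. One gene passed the test, and 0.322% of all genes did. That gene was Atp5k, the e subunit of ATP synthase, at which dimers of the enzyme form. It measured 244, 241 and 222 in aged and 103, 121 and 110.0 in young thymus, without overlap. Its log2 change was 1.09 (SE 0.19, adjusted p 0.0360, limma), which fell short of the threshold when aged mouse 1, 2 or 3 or young mouse 1 or 3 was left out (adjusted p 0.0612 to 0.185). Its start region (chr5:108434350-108434649, minus strand, RefSeq, GRCm38.p6) is shown as that of the one called gene outside complex IV; capitals mark the palindromic element of NRF1, a regulator of nuclear genes for mitochondria.
Atp5k: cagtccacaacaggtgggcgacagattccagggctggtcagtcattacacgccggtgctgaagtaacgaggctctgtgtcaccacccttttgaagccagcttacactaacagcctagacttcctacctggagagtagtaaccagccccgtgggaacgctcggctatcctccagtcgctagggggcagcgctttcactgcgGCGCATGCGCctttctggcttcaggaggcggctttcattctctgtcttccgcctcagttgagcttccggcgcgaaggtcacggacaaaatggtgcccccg

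Values above 0 were in the majority in every complex in thymus. Log2 changes were above 0 for 32 of 35 genes of complex I (median 0.55), 4 of 4 of complex II (0.57), 8 of 8 of complex III (0.59), 15 of 19 of complex IV (0.46) and 13 of 15 of complex V (0.28). In complex I the highest was Ndufb8, a membrane-arm subunit often used to gauge complex I assembly, at 173, 107 and 129 in aged and 56.5, 74.1 and 62.1 in young thymus (log2 change 1.07, adjusted p 0.0735, limma, and 0.0328 without young mouse 2), and the lowest was Ndufs6 (-0.57). The highest and lowest were Sdhb (0.62) and Sdhd (0.12) in complex II and Uqcrc1 (0.71) and Uqcrh (0.20) in complex III. In complex V they were Atp5k and Atp5l (-0.28). In complex IV they were the low Cox6a2 (21.2, 8.76 and 0.999 against 0, 2.20 and 0.535) and Cox6b2 (-0.47). The median over the chain genes was 0.30 without aged library 1, whose heart muscle markers summed to 337. With each library left out in turn the median lay between 0.30 and 0.56. Fat cell markers summed to 3507, 1949 and 4061 in aged and 525, 2586 and 591 in young thymus, where young mouse 2 lay within the aged range, and thymocyte markers to 3389, 2799.5 and 3654 and 4961, 2760.2 and 5019. Other lists separated the ages without overlap in thymus. Brown fat markers summed to 157 to 809.8 in aged and 13.0 to 62.0 in young libraries, skeletal muscle markers to 169, 79.9 and 96.0 and 46.8, 37.3 and 44.2, erythroid markers to 158, 705 and 440.2 and 39.1, 93.3 and 39.2, and pericyte markers to 130.3, 96.4 and 127 and 86.2, 55.9 and 73.3. Without young mouse 2 the median over the chain genes was 0.48. Of the fat cell genes Lipe, Adrb3 and Plin1 were called in thymus (adjusted p 0.00388, 0.00836 and 0.0478, limma). The part of these cell types in the result was not tested.

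**Figure D2:**
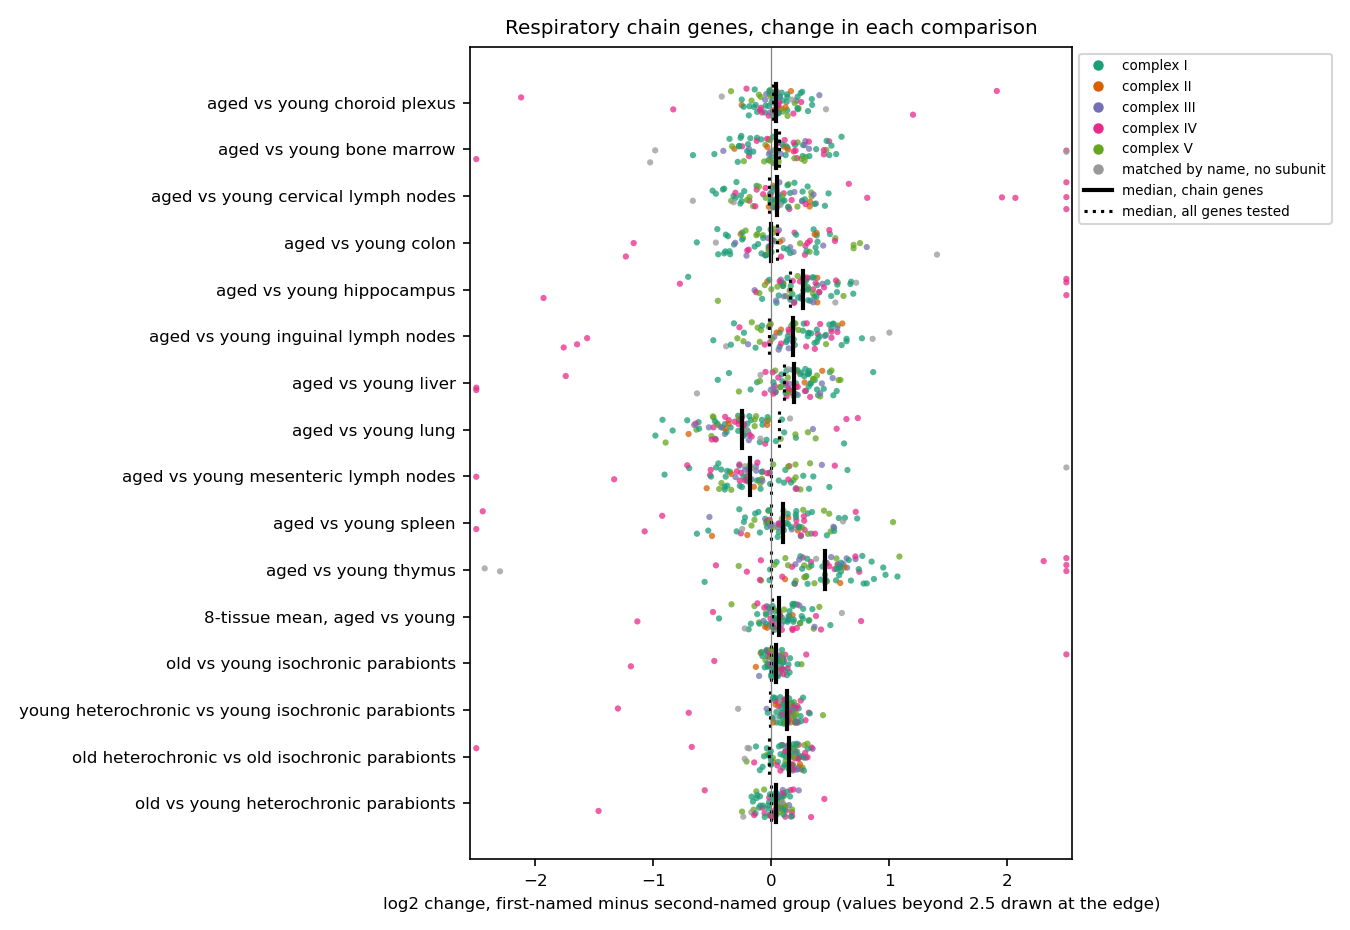
Log2 change of each chain gene (points, coloured by complex) in the 11 tissues, in the mean over 8 tissues and in 4 comparisons of parabionts, with the median of the chain genes (solid bar) and of all genes tested (dotted bar). The solid bar lies farthest from the dotted one in thymus (0.46 against -0.01), and it lies below it in lung and mesenteric nodes.

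Colon showed a set of higher values in aged mice, and none passed. Uqcrc2, a core protein of complex III, measured 194, 197 and 223 in aged and 104, 129.6 and 118 in young colon (log2 change 0.81, SE 0.18, adjusted p 0.185, limma). All 3 genes of the ATP synthase c-ring pointed the same way without overlap: Atp5g1 at 146 to 195 against 97.0 to 115 (adjusted p 0.280), Atp5g2 at 78.3 to 103 against 44.0 to 60.1 (adjusted p 0.315) and Atp5g3 at 584 to 822 against 405 to 449 (adjusted p 0.216). Over the colon chain genes 13 were higher without overlap and 2 lower, against 8.97% and 6.73% of all genes tested, and the median was 0.00 (42 of 82 above 0). None of 82 was called, against 0.0402% of all genes. Depth separated the ages in colon, where the shallowest aged library had 670030 reads and the deepest young one 614567. The same held for bone marrow (616875 against 574198) and liver (1006003 against 916758). Fat cell markers in colon were lower in aged mice without overlap (highest aged sum 251, lowest young sum 258), as were lymphocyte and heart muscle markers. The part of depth and of these cell types was not tested.

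In most other tissues the median over the chain genes moved towards 0 or past it when a single library was left out. In hippocampus it was 0.27 (72 of 84 above 0, all genes 0.16), and 0.03 without young mouse 2. In liver it was 0.19 (69 of 83, all genes 0.11), and -0.12 without that mouse, a change of sign, and 0.28 without young mouse 1, whose library held lung markers. In lung it was -0.25, with 14 of 83 above 0 and all genes at 0.07, and -0.05 without young mouse 2. In mesenteric nodes it was -0.18 (24 of 84 above 0), -0.03 without young mouse 2 and -0.01 without aged mouse 3. In inguinal nodes it was 0.18 (59 of 82 above 0), and -0.07 without aged mouse 3, whose library held fat cell markers. In cervical nodes it was 0.05 (53 of 84 above 0), -0.15 without aged mouse 1, the library with brown fat markers, and 0.11 without young mouse 2. The medians near 0 in choroid plexus, bone marrow and colon also took either sign as libraries were left out, from -0.04 to 0.11, from -0.04 to 0.10 and from -0.07 to 0.10. No chain gene was called in hippocampus, inguinal nodes, liver, lung or mesenteric nodes (limma). Of all genes 0% were called in hippocampus, 0% in inguinal nodes, 0.0068% in liver, 0.00653% in lung and 0.00688% in mesenteric nodes. In the same order 0, 1, 0, 8 and 2 chain genes had an unadjusted p under 0.05, not set against the share over all genes. Without overlap, 10 chain genes were higher and 2 lower in aged hippocampus (all genes 6.19% and 3.95%), 2 higher and 1 lower in aged liver (all genes 10.4% and 7.8%) and 2 higher and 15 lower in aged lung (all genes 10.2% and 5.96%). Likewise, 1 chain gene was higher and 2 lower in aged mesenteric nodes (all genes 8.47% and 5.94%) and 6 higher and 3 lower in aged inguinal nodes (all genes 6.29% and 6.08%).

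Single genes in these tissues give the size of what was seen. Ndufa1, a small complex I subunit needed for its assembly, measured 72.5, 61.4 and 71.0 in aged and 113, 179 and 107 in young lung (log2 change -0.92, adjusted p 0.424, limma). It was followed in lung by Atp5l (-0.90, adjusted p 0.502) and Ndufv3 (-0.98, adjusted p 0.504), both in limma. All 3 were highest in the library of young mouse 2, without which their log2 changes were -0.69, -0.60 and -0.67. In mesenteric nodes Ndufa8 measured 45.9, 24.4 and 42.3 in aged and 71.2, 78.6 and 55.6 in young libraries (adjusted p 0.561, limma), and the smallest p-values after it were those of Ndufs6 and Atp5s. In inguinal nodes the smallest were those of Ndufb10 (log2 change 0.77, adjusted p 0.866), Cox4i1 (0.56) and Ndufc2 (0.64) by limma, each highest in the library of aged mouse 3, without which the log2 changes were 0.55, 0.32 and 0.38. In hippocampus they were those of Cox7a1 (no more than 6.17 in any library), Ndufa12 (0.68, adjusted p 0.896) and Ndufa9 (0.69), the last 2 at 0.46 and 0.43 without young mouse 2, and in liver those of Ndufa12 (0.86, adjusted p 0.999), Cox6b2 and Cox4i2, the last 2 listed at 0 in both aged livers.

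Spleen, bone marrow and cervical nodes showed no shared direction. In spleen 52 of 82 chain genes lay above 0 (median 0.10), 9 were higher without overlap and 6 lower, against 7.89% and 7.14% of all genes. Atp5g1 measured 53.8, 61.9 and 34.0 in aged and 24.0, 19.5 and 28.3 in young spleen (log2 change 1.03, adjusted p 0.456, limma). Ndufa10 (0.73, adjusted p 0.496) and Cox5a (0.71, adjusted p 0.530) came next in limma. Without young mouse 2, whose spleen library held lung markers, the spleen median was 0.07, and the log2 changes of Atp5g1 and Cox5a were 0.89 and 0.47. In bone marrow 45 of 82 lay above 0 (median 0.04). The smallest p-values there belonged to Cox7a1, to Atp5sl and to Ndufs3 (log2 change -0.66, adjusted p 0.754, limma). Cox7a1 was listed at 0 in all 3 aged libraries and at 3.26 and 0.955 in the young. A single read is worth 1.63 and 0.955 in those young libraries. In cervical nodes Cox5a came after Cox8b and Cox7a1, with a log2 change of 0.66 (adjusted p 0.765, limma), and 0.36 without aged mouse 1. None was called in the 3 tissues, against 0.0758% of all genes in spleen, 0% in bone marrow and 0.0196% in cervical nodes. Respectively 6, 8 and 2 chain genes had an unadjusted p under 0.05, not set against the share over all genes. Without overlap, 12 chain genes were higher and 10 lower in aged bone marrow (all genes 11.5% and 9.47%) and 3 higher and 3 lower in aged cervical nodes (all genes 11.6% and 11.4%).

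Ndufs6 was lower in aged mice in more tissues than any other chain gene. Ndufs6 is a small zinc-binding subunit of the electron-input arm of complex I. It was lower in every aged than in every young library in 6 of 11 tissues (hippocampus, inguinal nodes, liver, lung, mesenteric nodes and spleen), and higher without overlap in 1, choroid plexus. Of the 11116 genes measured in all tissues, 0.261% were lower without overlap in at least 6. That cut-off equals the count of Ndufs6, which was picked for having the highest, so the share is no test of Ndufs6. The tissues came from the same mice, so they are not independent observations. In spleen Ndufs6 measured 175, 186 and 199 in aged and 323, 213 and 286 in young mice. In mesenteric nodes it measured 277, 221 and 243 and 474, 338 and 395. In lung it measured 105, 92.9 and 113 and 145, 139 and 142. The gap was small in hippocampus, where the highest aged library was 74.3 and the lowest young one 74.4. In choroid plexus the order was the other way round, at 72.3, 79.2 and 76.0 in aged and 68.6, 59.1 and 67.6 in young libraries. The start region of Ndufs6 (chr13:73328433-73328732, minus strand, RefSeq, GRCm38.p6) is given with capitals on the short NRF1 element TGCGCA and the YY1 element AANATGGCG, read on either strand.
Ndufs6: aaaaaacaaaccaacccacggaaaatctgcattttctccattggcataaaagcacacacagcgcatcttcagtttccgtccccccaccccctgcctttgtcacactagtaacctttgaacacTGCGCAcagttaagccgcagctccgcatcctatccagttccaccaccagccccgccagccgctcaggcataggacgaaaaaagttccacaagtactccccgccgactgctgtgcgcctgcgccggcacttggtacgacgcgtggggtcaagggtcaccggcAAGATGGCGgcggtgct

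Averaged over the tissues of each mouse, the lower Ndufs6 did not pass the test. As a mean over the 8 tissues with all 6 mice, the log2 change of Ndufs6 was -0.44 (SE 0.11, p 0.00139, adjusted p 0.207, limma, 3 aged and 3 young mice), and -0.38 (adjusted p 0.335) without young mouse 2. Ndufa12, another accessory subunit of complex I, was higher in aged mice by 0.50 (SE 0.13, adjusted p 0.250, limma). It was higher without overlap in 4 tissues and lower in none. Over the chain, 9 of 80 chain genes were higher without overlap in at least 3 tissues, against 10.2% of all. Lower without overlap in some tissue and higher in another were 19 of 80 chain genes, against 22.8% of all, and 8 with 3 or more such tissues, against 12.5%. Atp5k followed Ndufa12 in the mouse means with 0.41 (adjusted p 0.271, limma). Over these mouse means 58 of 83 chain genes lay above 0, with a median of 0.07 against 0.01 over all genes; 16 were higher without overlap, 19.3% of them, against 8.74% of all genes tested, and 2 lower, against 7.65%. None was called, against 0.0134% of all genes. An unadjusted p under 0.05 was found for 16, a count not set against the share over all genes. Both deposited rows of Ndufs6 carry identical values, and reads from near-identical copies of a gene cannot be told apart in these data.

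**Figure D3:**
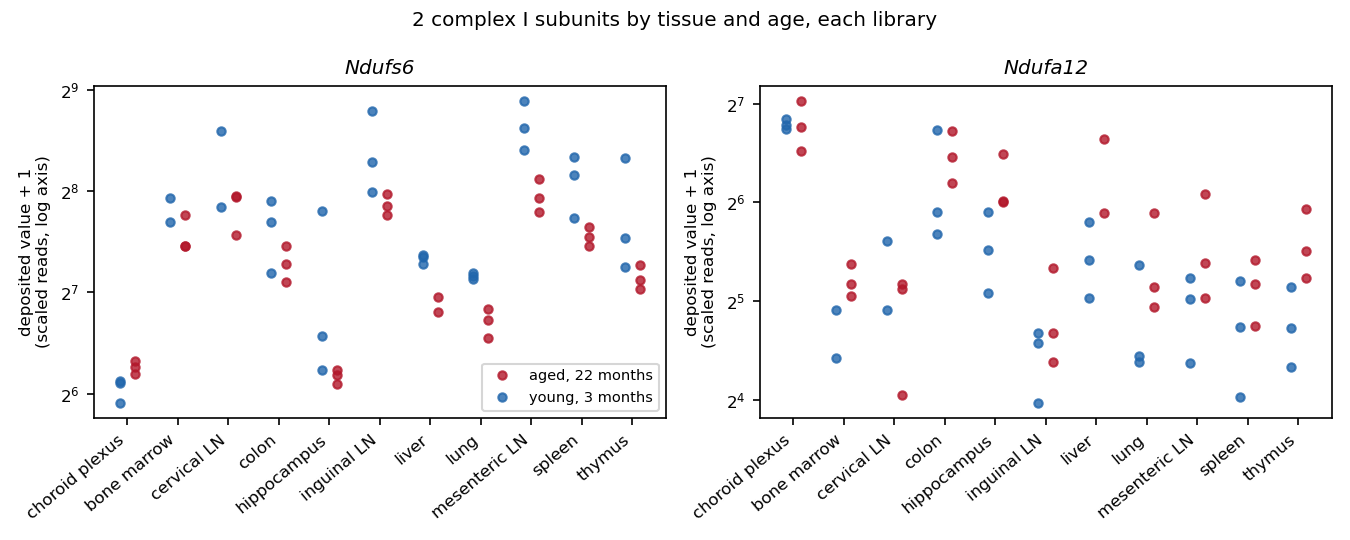
Deposited value plus 1 (scaled reads, log axis) of the complex I genes Ndufs6 and Ndufa12 in each library, by tissue (LN, lymph nodes), aged mice in red and young mice in blue. For Ndufs6 the aged libraries lie below the young ones in 6 tissues and above them in choroid plexus.

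The choroid plexus age effect was then tested against the mean effect of the other 10 tissues. No chain gene passed (limma), against 1.56% of all 20179 genes. An unadjusted p under 0.05 was found for 3 of 85, a count not set against the share over all genes. Ndufs6 came closest, with a difference of 0.72 (SE 0.26, p 0.00731, adjusted p 0.221). It was followed by Ndufv2, a flavoprotein-arm subunit of complex I (-0.57, adjusted p 0.462), and by Cox6a2, which is close to 0 in choroid plexus. For Cox8b the difference was 1.20 (SE 1.73, adjusted p 1), so its rise was not shown to be particular to choroid plexus.

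In the parabionts, no chain gene passed the test in any of the 5 comparisons. High values are compressed in these data: the most abundant gene, the transthyretin gene Ttr, reached 848 to 993 reads in each parabiont library, but up to 222839 in the tissue experiment. Cox8b measured 170.2, 143 and 142 in young isochronic and 192, 170.5 and 195 in old isochronic mice. It measured 183, 146 and 171 in young heterochronic and 219 and 234 in old heterochronic mice. Old mice were above young ones without overlap within each kind of parabiosis, by a narrow margin in isochronic mice (lowest old library 170.5, highest young library 170.2). The log2 change with age was 0.30 (SE 0.0975, p 0.00629, adjusted p 0.662, limma) in isochronic and 0.45 (SE 0.11, p 0.000486, adjusted p 0.135, limma) in heterochronic mice, and the difference between both effects was 0.15 (SE 0.15, adjusted p 0.898, limma). In neither was Cox8b called. Ucp1 reached at most 5.03 in any of the 11 libraries. The change of Cox8b with age in the untreated mice was 1.91 on the log2 scale. Those mice were not surgically joined, and their data lack this compression. The cause of the difference in size was not tested.

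Compared with isochronic mice of the same age, heterochronic mice had slightly higher values over most of the chain. In young mice 78 of 83 chain genes lay above 0, with a median log2 change of 0.13 against -0.01 over all genes, and 26 were higher without overlap (31.3% of those tested, against 4.4% of all genes) and 1 lower (all genes 5.36%). In old mice 64 of 83 lay above 0, with a median of 0.15 against -0.02, and 44 were higher without overlap (53%, against 12.8% of all genes) and 6 lower (all genes 12.4%). None was called, and none of all 16504 genes was either (0% and 0%, limma). An unadjusted p under 0.05 was found for 22 and 25 chain genes, counts not set against the share over all genes. Young isochronic mice had the lowest mean of the 4 groups for 45 of 84 genes, and old heterochronic mice had the highest for 50. The same order was not counted over all genes.

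Depth moved with this pattern. The heterochronic libraries had 675913 to 773403 reads (young) and 534663 to 687909 reads (old), and the isochronic ones 746493 to 992000.2 (young) and 799608 to 886349 (old), so that the old groups did not overlap and the young groups did. The mean log2 value over the chain genes was 7.23 to 7.31 in young isochronic, 7.25 to 7.34 in old isochronic, 7.32 to 7.46 in young heterochronic and 7.38 to 7.44 in old heterochronic libraries. The values of Ttr ran alongside at 777 to 965, 812 to 914, 919 to 1065 and 959.8 to 1254. With log2 depth as a covariate, an analysis chosen after the data were seen, the median was 0.09 in young (71 of 83 above 0) and 0.04 in old mice (52 of 83). With quantile normalization it was 0.08 (69 of 83) and 0.01 (43 of 83). The part of depth in the result was not tested beyond these values.

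**Figure D4:**
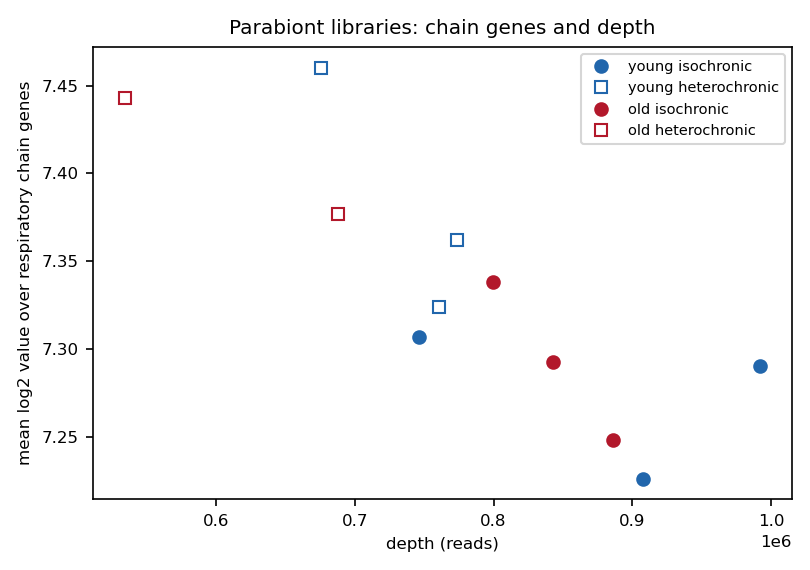
Mean log2 value over the 82 chain genes above the filter in every parabiont library (vertical axis) against depth in reads (horizontal axis), 1 point per library, circles for isochronic and open squares for heterochronic mice, blue for young and red for old. The shallowest library, from an old heterochronic mouse, lies at 7.44, and the deepest, from a young isochronic mouse, at 7.29.

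The smallest p-values in each comparison belonged to the following genes, none of them called. In young heterochronic against young isochronic mice Atp5k measured 181, 164 and 166 against 135, 107 and 137 (log2 change 0.44, SE 0.0997, p 0.000256, adjusted p 0.674, limma). The next were Ndufa4 (0.32, adjusted p 0.708) and Ndufb2 (0.33, adjusted p 0.708), both by limma. With the depth covariate the change of Atp5k was 0.38 (p 0.00501, adjusted p 0.583, limma). In old heterochronic against old isochronic mice the smallest p belonged to Cox4i1, the general form of subunit 4, at 362 and 436 against 322, 310.2 and 333 (log2 change 0.31, SE 0.0929, adjusted p 0.415, limma). Uqcr11 (0.35) and Cox5b (0.34) had the same adjusted p. In old against young isochronic mice they were Cox8b, Ndufa4l2 (-1.19, adjusted p 0.885) and Atp5k (0.26, adjusted p 0.909), all by limma. In old against young heterochronic mice they were Cox8b, Uqcr11 (0.23, adjusted p 0.576) and Cox6b2 (0.19, adjusted p 0.629), and for the difference between both age effects Ndufb2, Ndufs4 and Atp5k (adjusted p 0.795 in each, limma). The background of called genes was 0.0788%, 0.0909% and 0% in these 3 comparisons, and the chain medians were 0.04, 0.04 and 0.02. Old mice were higher without overlap for 7 and lower for 1 chain genes among isochronic mice (all genes 5.36% and 4.68%), and for 7 and 3 among heterochronic mice (all genes 10.3% and 10.6%). The comparisons share control groups, so they are set side by side and not counted as repeats.

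Among the tissue-type forms other than Cox8b, Ndufa4l2 stood apart in young isochronic mice. Ndufa4l2 measured 17.5, 10.2 and 19.0 in young isochronic mice, 4.64, 6.04 and 7.98 in young heterochronic, 5.77, 5.97 and 8.18 in old isochronic and 2.25 and 7.39 in old heterochronic mice. The young isochronic libraries lay above all 8 others, but young heterochronic against young isochronic mice gave a log2 change of -1.30 (SE 0.46, p 0.00963, adjusted p 0.752, limma), which did not pass. Cox7a1 ran from 77.3 to 108 and Cox6b2 from 128 to 161 over the 11 libraries. Cox6a2 was at 0 in 10 of them and Cox4i2 ran from 2.99 to 11.3. The Cox4i2 to Cox4i1 log2 ratio differed by -0.71 in young heterochronic against young isochronic mice. At such low values of Cox4i2, a difference between groups cannot be judged.

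**Figure D5:**
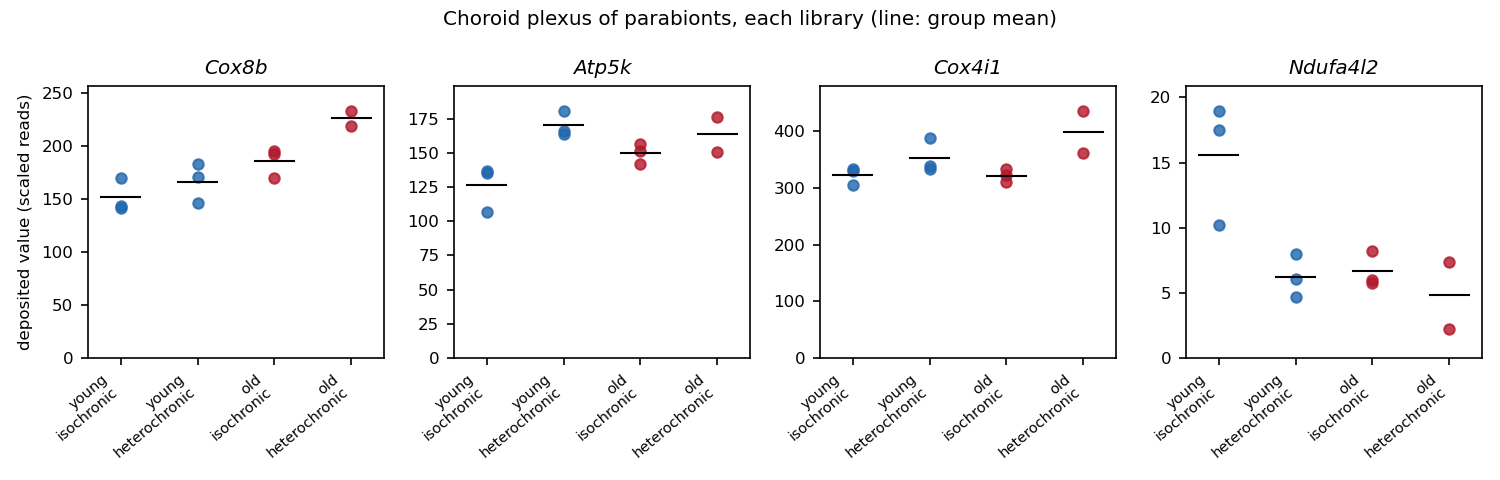
Deposited values (scaled reads, axis from 0) of Cox8b, Atp5k, Cox4i1 and Ndufa4l2 in choroid plexus of the 4 parabiosis groups, 1 point per library with the group mean as a line, young mice in blue and old mice in red. Old heterochronic mice are highest for Cox8b, and young isochronic mice are highest for Ndufa4l2.

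Genes that act beside the chain were counted by list. In aged against young thymus 16 of 18 measured genes of the tricarboxylic acid cycle, which feeds electrons to the chain, lay above 0 (median 0.60, none called, Ogdh 1.05 with an adjusted p of 0.142 by limma), as did 7 of 9 chain genes that the name rule leaves out (median 0.44, among them cytochrome c1, Cyc1, at 0.59). Assembly factors did not share this direction, with 22 of 47 above 0 and a median of -0.05, none called. Of the glycolysis genes 13 of 17 lay above 0 in thymus, and 1 was called, the aldolase gene Aldoa (log2 change 1.45, adjusted p 0.0256, limma). Among regulators of mitochondrial genes in thymus, Ppargc1a (PGC-1alpha, also high in brown fat) had an adjusted p of 0.301 by limma. It measured 1.15, 2.19 and 0.999 in aged and 0, 0 and 0 in young libraries. A single read is worth 0.574, 2.19 and 0.999 in aged thymus libraries 1, 2 and 3, so these values lie near the floor. In choroid plexus none of these 5 lists had a called gene, and their medians ran from -0.06 to 0.10. In heterochronic against isochronic parabionts, assembly factors lay above 0 in 28 of 47 (young) and 19 of 47 (old) cases, and regulators in 7 of 18 and 4 of 18. Genes of the tricarboxylic acid cycle did in 11 of 18 (median 0.04) and 14 of 18 (0.09), glycolysis genes in 11 of 17 (0.06) and 12 of 17 (0.14), and chain genes outside the name rule in 9 of 10 (0.11) and 7 of 10 (0.06), none called. Among the last, the ATP synthase gene Atp5md, chosen after its values were seen, measured 128, 117 and 121 against 109, 102 and 102 in young mice, without overlap, and 101 and 109.7 against 117, 106 and 113 in old mice, with overlap.

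Start regions were found for 69 of the 85 genes (75 regions of 300 bases, RefSeq, GRCm38.p6), and 8 motifs were searched on both strands in them and in all 32851 regions of the table. The short element of NRF1, TGCGCA, stood in 25.3% of the chain regions and 7.76% of all regions. The YY1 element AANATGGCG stood in 16.0% and 2.38%. The longer palindromic NRF1 element stood in 6.67% and 0.971%, and in the start regions of Atp5g2, Atp5k, Cox6a1, Ndufa11 and Uqcrc1. ETS-type letters CCGGAAGT stood in 6.67% and 3.89%, the ERR element TCAAGGTCA in 2.67% and 0.423% and the SP1 element GGGCGG in 38.7% and 35.7%. The muscle element of MEF2 stood in 1.33% and 3.69%, and among the 69 genes searched only in Cox5b. Cox6a2 and Cox4i2 had no start region to search. The PPAR direct repeat stood in none and 0.0396%. These are matches of letters in a short window and say nothing about binding.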

How the data were processed

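RNA was sequenced from 11 tissues of untreated mice (63 libraries) and from choroid plexus of parabionts (11 libraries). TopHat and the mm9 build are named in the submitters' processing notes; for the read counter and the scaling factor, no tool is given in the sources used here. What the authors deposited is a signal of weighted reads per RefSeq transcript divided by 1 factor per library, as read from the values; depth is that number of reads. One column of the tissue data matched no listed sample and was not used. Per gene the row with the highest mean was kept. Values were tested as log2(value + pseudocount), where the pseudocount is each library's smallest nonzero value, taken as a median across libraries (0.0267 to 0.0619), after a filter at 4 pseudocounts in as many libraries as the smaller group. The test was limma 3.58.1 in R 4.3.3 with a mean-variance trend and robust empirical Bayes, two-sided, with Benjamini-Hochberg adjustment over all genes tested, and a gene was called at an adjusted p under 0.05. Fold changes are on the log2(value + pseudocount) scale, which is unstable near 0. Each tissue was fitted alone, and the 4 parabiosis groups together. Simulated counts with a fixed spread were fitted for choroid plexus and for young heterochronic against young isochronic parabionts only. A log2 change of 1 was recovered for 54% and 71% of the changed genes. In the simulated choroid plexus 9752 genes were tested, against 14227 in the data, so these shares may not hold for the data. Per comparison the called genes, or else the 3 smallest p-values, are named, with the tissue-type forms and the extremes of each complex. Nothing in the labels says that the libraries of a group beyond the mouse number are independent preparations, so p-values measure the spread between these samples. The kit differed: RNA MicroPrep for choroid plexus, miRNeasy for the other tissues, so tissue and kit cannot be told apart in levels. The genes and lists were chosen with earlier results of these data known. Alternatives tried were quantile normalization, a pseudocount of 1 read, no filter, no trend, a replicate block, only the groups compared, no mouse term, leaving out each library and, added later, depth as a covariate.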

Additional observations from a re-analysis of the deposited data

Results flagged for a closer look

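Some chain genes were lower in every aged library of some tissues and higher in every aged library of others. This held for 19 of 80 chain genes, 23.8%, against 22.8% of all 11116 genes measured in every tissue. The 8 for which it involved at least 3 of 11 tissues are given here, where 12.5% of all genes met the same rule, so both counts are near the background. Ndufs6 was lower in 6 tissues and higher in 1, Sdhc, a membrane anchor of complex II, lower in 3 (colon, lung and spleen) and higher in 1 (thymus). Atp5sl and Cox6a1 were each lower in 2 and higher in 1. Ndufa7 and Ndufs1 were each lower in 2 and higher in 2. Ndufa8 and Cox7c were each lower in 1 and higher in 2. The difference between tissues was not tested for these genes, apart from choroid plexus against the mean of the other 10 tissues, where Ndufs6 had a difference of 0.72 (adjusted p 0.221, limma). No group held 4 or more libraries, so single libraries were not tested as outliers.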

How the results depend on the processing

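Without the mean-variance trend 0 chain genes were called in choroid plexus, 2 in bone marrow and 0 in thymus, so the calls of Cox8b and Atp5k rest on that setting. In thymus 3 were called with a pseudocount of 1 read and 3 with the replicate block, and 0 to 2 with each library left out. In bone marrow 0 to 1 were called with each library left out, the 1 without young mouse 3, where the lone young library is assumed to vary like the aged ones. The replicate block used mouse numbers, whose libraries did not deviate together: 0 of 30 same-number pairs had a correlation over 0.1 (range -0.14 to 0.083), so the numbers are not treated as pairs. The block changed no other count of called chain genes. The median over the chain genes in hippocampus ran from 0.030 to 0.40 with each library left out. With quantile normalization the median was 0.0078 in old heterochronic against old isochronic mice, -0.021 in old against young heterochronic mice and -0.069 for the difference between both age effects. With depth as a covariate, chosen after seeing the data, the first 2 were 0.035 and -0.016. Over all genes, the 26 called in choroid plexus became 8 to 112 and the 48 in thymus 3 to 163 over the alternatives, so the background shares move with the setting too. The cause of these shifts was not tested. Groups of 2 or 3 libraries, with as few as 187827 reads in a library, limit which small changes could be called.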
